A study of Mus musculus with 18 samples.

Results

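The genes of the major histocompatibility complex (MHC) and of antigen presentation were followed across sorted mouse regulatory T cells, the Foxp3-expressing CD4 T cells that restrain immune responses. They were taken as every row of the deposited count table whose symbol begins with H2-, the mouse MHC prefix, with 1 exception, plus B2m, Tap1, Tap2, Tapbp, Tapbpl, Nlrc5, Ciita, Cd74, Calr, Canx, Pdia3 and Erap1. This gave 55 of the 23420 genes in the table. The labels give 3 genotypes, FCre x C1fl/fl, FCre x C1fl/+ and FCre x C1+/+, written below as fl/fl, fl/+ and +/+, and 2 states, effector and resting. Each of the 6 groups holds 3 libraries, numbered 1 to 3 by the batch number of the labels. FCre is thus carried by all 3 genotypes, the +/+ libraries included, and the labels do not spell out its promoter. Strain, age, sex and the gating of the sort are not in the labels. The series title concerns the CBM signalosome, a signalling complex below the antigen receptor. The labels do not say that libraries are separate animals, so each p-value measures the spread between these libraries, which may be technical.

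Class I molecules are made of a heavy chain and beta-2 microglobulin (B2m) and carry peptides from inside the cell. The peptides are moved into the endoplasmic reticulum by the Tap1 and Tap2 transporter, trimmed by Erap1, and loaded with the help of tapasin (Tapbp), calreticulin (Calr) and the disulfide isomerase Pdia3. Class II molecules present peptides from endosomes, are guided there by the invariant chain Cd74, and in mice are a property of B cells, dendritic cells and other presenting cells, while mouse T cells make little of them. Nlrc5 switches on class I genes and Ciita switches on class II genes.

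Of the 55 members, 40 passed the filter on low counts and were tested, 7 were at 0 in every library, and 8 had counts but were too low to test, with at most 48 counts over all 18 libraries. The tested members were 4 classical class I rows, 15 nonclassical class I rows, 8 class II rows, 9 assembly genes, 2 regulators, and H2-Ke2 and H2-Ke6, which carry the prefix by position and encode no MHC molecule. The untested ones were 13 nonclassical rows of the H2-M, H2-T and H2-Bl type and 2 class II rows, H2-Ea-ps and H2-Eb2. Library totals ran from 1658073 to 5756903 expected counts, and the members took 1.53 to 1.91% of each. A level of 3 counts, near the limit that a count of 0 allows, was 0.497 to 1.81 CPM in a library. That limit covers counting error only. CPM is the expected count scaled to the library total of tested genes and a scaling factor for each library. In the mouse annotation GENCODE M21 (build GRCm38), 50 members had a position, 41 of them on chromosome 17. The 7 placed H2-Q rows lie at chr17:35320405-35474563 and the placed H2-T rows at chr17:36005695-36190287.

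The 250 bases before the transcription start, from RefSeq on GRCm38.p6, are shown for 7 members on which the results turn: 2 abundant classical class I genes, H2-Q4 for the rows that were lower in fl/fl cells, and 4 genes that differed between states. Each is given from base 250 before the start to the base next to it, with matches to 4 motifs in capitals. The motifs, searched on both strands, were a kappaB-like motif (GGG, NN, TT, N and CC in a row, with N for any base), an interferon response GAANNGAAA, a CCAAT box, and the endoplasmic reticulum stress element (CCAAT and CCACG 9 bases apart), which contains a CCAAT box. The stretches are chr17:34000334-34000583 (- strand) for the first of the 2 H2-K1 starts, chr17:35262844-35263093 (+ strand), chr17:35379367-35379616 (+ strand), chr17:36042743-36042992 (- strand), chr17:34238655-34238904 (+ strand), chr8:84846932-84847181 (- strand) and chr2:121413652-121413901 (+ strand), in that order.
H2-K1: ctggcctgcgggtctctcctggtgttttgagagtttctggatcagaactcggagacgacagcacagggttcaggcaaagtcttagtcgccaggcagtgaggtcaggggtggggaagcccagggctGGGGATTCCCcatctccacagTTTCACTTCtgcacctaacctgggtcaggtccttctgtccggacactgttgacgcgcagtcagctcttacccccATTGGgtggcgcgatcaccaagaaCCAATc
H2-D1: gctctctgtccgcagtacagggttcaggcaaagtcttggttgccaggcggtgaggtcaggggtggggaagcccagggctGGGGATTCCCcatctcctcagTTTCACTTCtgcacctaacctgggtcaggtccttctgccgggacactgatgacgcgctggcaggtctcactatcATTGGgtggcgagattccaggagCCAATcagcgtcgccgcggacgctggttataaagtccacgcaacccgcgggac
H2-Q4: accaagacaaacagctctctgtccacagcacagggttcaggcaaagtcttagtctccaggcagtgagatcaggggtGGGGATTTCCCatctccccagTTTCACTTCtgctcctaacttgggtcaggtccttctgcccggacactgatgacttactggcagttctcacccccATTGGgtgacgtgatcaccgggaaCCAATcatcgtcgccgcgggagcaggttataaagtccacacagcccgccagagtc
H2-T22: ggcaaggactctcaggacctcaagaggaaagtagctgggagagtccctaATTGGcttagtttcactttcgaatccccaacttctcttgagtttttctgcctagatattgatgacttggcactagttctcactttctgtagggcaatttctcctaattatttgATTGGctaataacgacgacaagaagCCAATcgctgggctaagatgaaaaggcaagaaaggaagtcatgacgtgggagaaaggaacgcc
H2-Ob: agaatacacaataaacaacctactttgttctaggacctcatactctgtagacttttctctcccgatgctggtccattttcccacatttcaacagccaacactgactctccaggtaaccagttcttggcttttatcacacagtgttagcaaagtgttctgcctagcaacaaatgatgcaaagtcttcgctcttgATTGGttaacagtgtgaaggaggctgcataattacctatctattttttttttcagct
Calr: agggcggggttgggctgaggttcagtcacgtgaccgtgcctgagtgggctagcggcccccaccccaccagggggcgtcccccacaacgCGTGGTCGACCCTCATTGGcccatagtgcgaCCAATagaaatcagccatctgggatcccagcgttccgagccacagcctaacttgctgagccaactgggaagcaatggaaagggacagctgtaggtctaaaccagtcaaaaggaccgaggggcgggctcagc
Pdia3: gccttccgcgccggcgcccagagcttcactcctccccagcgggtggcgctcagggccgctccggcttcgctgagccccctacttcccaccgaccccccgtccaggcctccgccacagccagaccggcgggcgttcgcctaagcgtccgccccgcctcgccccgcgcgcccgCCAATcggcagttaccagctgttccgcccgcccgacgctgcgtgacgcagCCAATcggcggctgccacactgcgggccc

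H2-K1, H2-D1 and H2-Q4 share a layout in which the kappaB-like match lies upstream of the interferon response match, with 2 CCAAT boxes nearer the start. In H2-Q4 a pair of kappaB-like matches overlap, 174 to 165 and 173 to 164 bases before the start, and the interferon response match lies 153 to 145 bases before it. Of the motifs searched, H2-T22 and H2-Ob matched only the CCAAT box. The interferon response was searched in 1 spacing only, with 2 bases between GAA and GAAA. Forms with a wider gap, such as tttcactttc in H2-T22 and gaaactgaaa in B2m, were not searched. The interferon response counts below leave such forms out, so they do not show which members lack any interferon element. Calr held the stress element 162 to 144 bases before its start, and Pdia3 held 2 CCAAT boxes. RefSeq promoters matched 37 of the 55 members. The kappaB-like motif was found in 7 of these genes (B2m, H2-Aa, H2-D1, H2-K1, H2-Q4, H2-Q6 and H2-Q7) and in 4.11% of 32851 promoters of the same length. The interferon response motif was in 8 member genes against 6.31% of all promoters, the CCAAT box in 33 against 33.8%, and the stress element in Calr and Canx against 0.113%. The shares count promoters and not genes. Of the 40 member promoters, 8 held the kappaB-like motif, 9 the interferon response, 35 the CCAAT box and 2 the stress element. A match says only that these letters stand in this window, and a missing match only that these exact letters do not.

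Class I genes dominated the members' levels. Levels per transcript length were taken from the deposited FPKM values (fragments scaled to transcript length and library total), as the median over 18 libraries with the lowest and highest library. B2m stood at 3700 FPKM (3172 to 4047), the classical heavy chains H2-K1 at 2949 FPKM (2645 to 3303) and H2-D1 at 1872 FPKM (1705 to 2221). The ranges of B2m and H2-K1 overlapped, while every library had more FPKM of H2-K1 than the highest library had of H2-D1. Next came H2-Q9, of the Qa-2 family, at 524.4 FPKM (404 to 669.9) and H2-T23, which encodes Qa-1, at 495.8 FPKM (442 to 624), whose ranges overlapped. H2-Q5 had a median of 278 FPKM and H2-Q7 of 254 FPKM.

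The loading machinery formed a middle tier. Tapbp had a median of 233 FPKM, Pdia3 206 FPKM, Tap1 155 FPKM, Tap2 151 FPKM, Calr 105 FPKM, Canx 82.0 FPKM, Tapbpl 73.4 FPKM and Erap1 35.9 FPKM. The class I regulator Nlrc5 was at 39.3 FPKM (28.8 to 50.2), and the class II regulator Ciita at 0.455 FPKM (0.11 to 1.52). The class II helper rows H2-DMa (38.0 FPKM), Cd74 (32.1 FPKM) and H2-Ob (26.4 FPKM) were well above the class II chains H2-Ab1 (7.06 FPKM), H2-Aa (4.26 FPKM) and H2-Eb1 (2.41 FPKM). Each of these chains was at 0 in at least 1 library, and the highest value among them was 61.2 FPKM, for H2-Ab1.

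**Figure D1:**
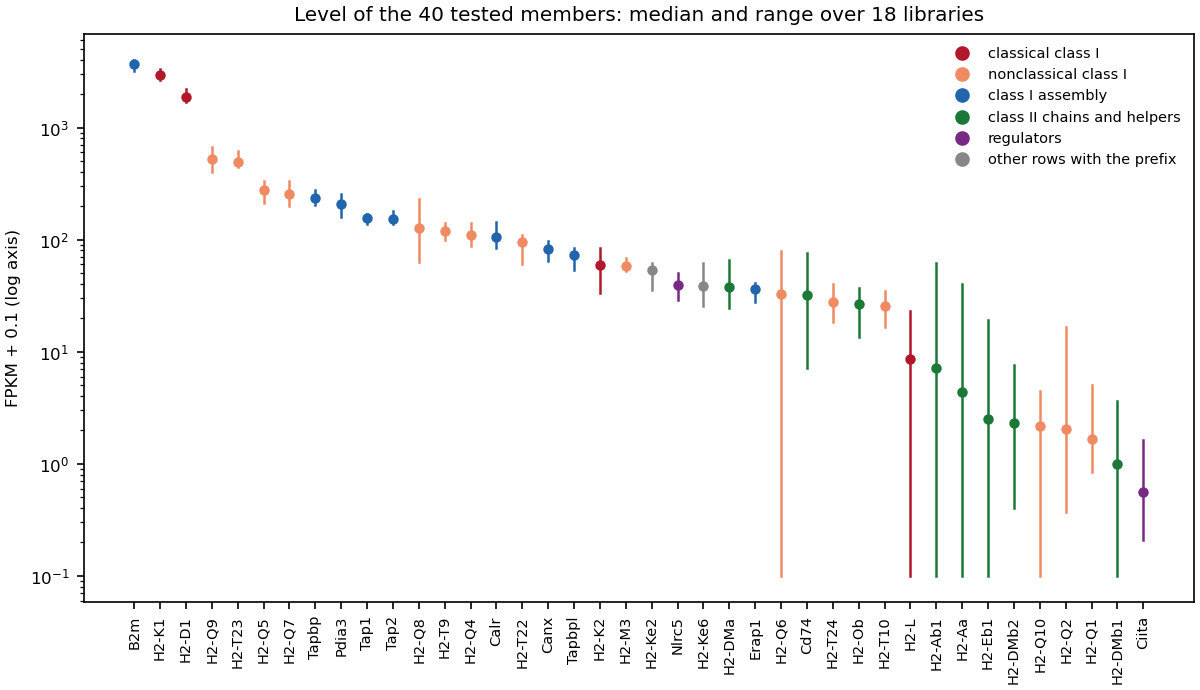
Level of the 40 tested members in FPKM plus 0.1 on a log axis, with points at the median and bars from the lowest to the highest of 18 libraries, coloured by role. B2m, H2-K1 and H2-D1 stand above all others, and the class II chains, H2-L, H2-Q6, H2-Q10 and H2-DMb1 have bars that reach 0 FPKM.

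Many class I rows are near copies of each other. Of their nonzero expected counts 100% were not whole numbers in H2-K1, H2-D1, H2-K2, H2-L, the H2-T rows tested and all H2-Q rows but H2-Q1 (88.9%), whereas Cd74 had 5.56%. The share was also 100% in Tapbp and Tapbpl, 94.4% in B2m, 77.8% in Pdia3 and 66.7% in Tap1 and Tap2. It counts any value that is not whole and not how much of a count is shared, so it does not single out copies. RSEM divides reads that fit several genes, so the value of a single H2-Q, H2-T or H2-K row is uncertain. Sums over the H2-Q and over the H2-T rows are given below. The annotation calls H2-Q5 and H2-T10 polymorphic pseudogenes and H2-K2 a transcribed pseudogene. H2-Q8, H2-Q9, H2-T9, H2-L and H2-Ke2 had no position in it.

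H2-K1, H2-D1, B2m, Tap1 and Nlrc5 were called in no comparison. H2-K1 had 4281, 4291 and 4027 CPM in fl/fl effector cells, against 4687, 5084 and 4833 CPM in fl/fl resting cells. In +/+ cells it had 4829, 4615 and 4485 CPM in effector libraries, against 4809.8, 4588 and 4601 CPM in resting ones. In fl/+ cells it had 4219, 4377.5 and 4263 CPM in effector libraries, against 4896, 4430 and 4897 CPM in resting ones. The groups did not overlap in fl/fl or in fl/+ and overlapped in +/+. Between states the libraries did not overlap for 21.7% of all tested genes in fl/fl, 34.1% in fl/+ and 32.3% in +/+. The log2 fold change of H2-K1 was -0.21 in fl/fl (SE 0.07, edgeR adjusted p = 0.0724) and -0.01 in +/+ (SE 0.07, edgeR adjusted p = 0.966). A gene was called here when its adjusted p from edgeR's quasi-likelihood test over all 10630 tested genes was under 0.05. The difference of these changes, tested as an interaction, was -0.21 (SE 0.10, edgeR adjusted p = 0.549).

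H2-D1 had 2819, 2988 and 2945 CPM in fl/fl effector cells and 2799.5, 2978 and 2950.2 CPM in fl/+ effector cells, against 3435, 3411 and 3232 CPM in +/+ effector cells. All 6 libraries with a floxed allele lay below all 3 +/+ libraries. In effector cells 20.5% of all tested genes had no overlap of fl/fl with +/+ libraries, and 11.6% none of fl/+ with +/+. On the log2 scale the change of H2-D1 was -0.20 (SE 0.07, edgeR adjusted p = 0.114) for fl/fl and -0.21 (SE 0.07, edgeR adjusted p = 0.555) for fl/+, so neither was called. These 2 comparisons share the +/+ libraries. In resting cells the fl/fl change was 0.04 with an interval of 2 SE from -0.10 to 0.17.

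B2m had 2742, 2736 and 2579.5 CPM in fl/fl effector cells, against 2898, 3064 and 2749.9 CPM in +/+ effector cells. Every fl/fl library was below every +/+ library, with a log2 fold change of -0.11 and an interval of 2 SE from -0.26 to 0.03. Tap1 had 448, 429.8 and 454 CPM in fl/fl effector cells and 449, 455 and 439.8 CPM in +/+ effector cells. These overlapped, and the log2 fold change of -0.01 had an interval from -0.18 to 0.16. Nlrc5, the class I regulator, had 253, 245 and 229.7 CPM in fl/fl effector cells, against 325, 299.7 and 255 CPM in +/+ effector cells. These groups did not overlap, but the log2 fold change of -0.28 (SE 0.11) had an edgeR adjusted p of 0.194.

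**Figure D2:**
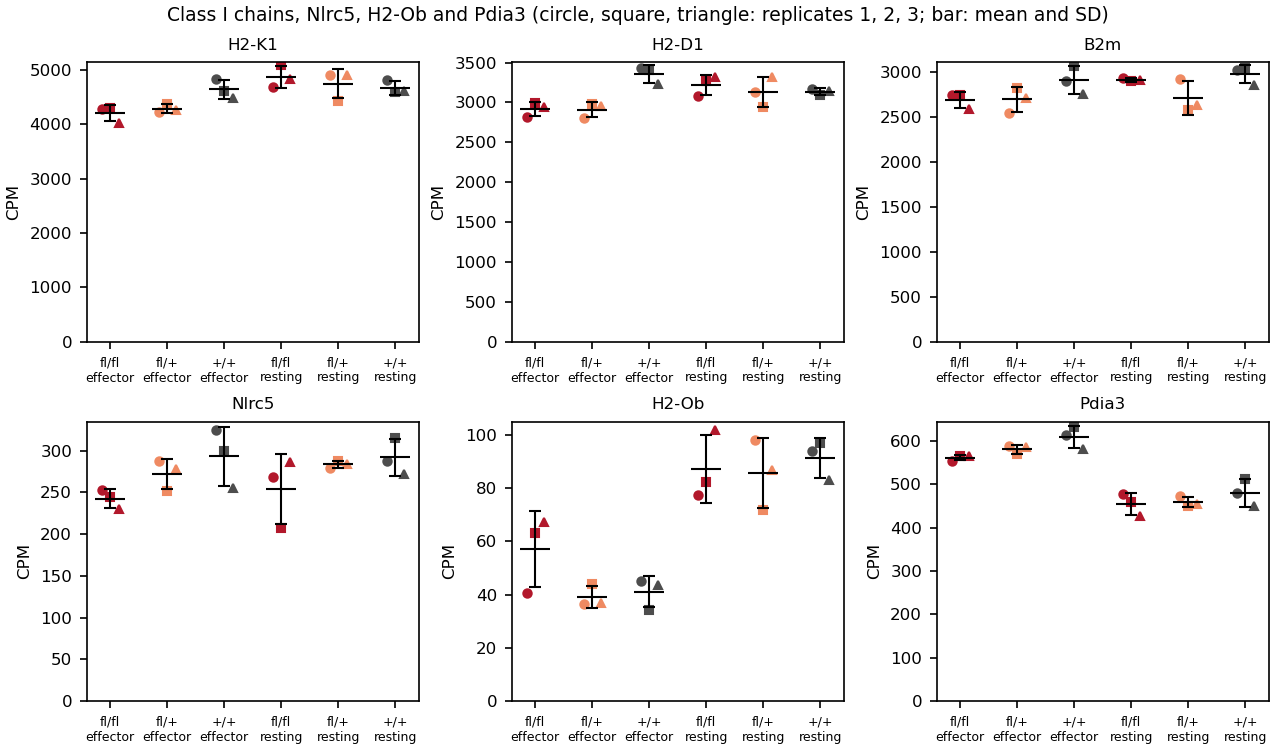
CPM of H2-K1, H2-D1, B2m, Nlrc5, H2-Ob and Pdia3 in each library, by genotype and state, with bars for the mean and SD of 3 libraries. H2-D1 lies at 2799.5 to 2988 CPM in the fl/fl and fl/+ effector libraries and at 3232 to 3435 CPM in +/+ effector libraries, while H2-Ob and Pdia3 separate by state.

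Between states, H2-Ob, H2-T10 and H2-T24 fell and Pdia3 rose in effector cells of all 3 genotypes, while the share of members called was near or above that of all genes. In fl/fl cells 4 of 40 members were called in effector against resting cells, 1 higher and 3 lower, where 6.34% of all tested genes were called, 5.01% higher and 1.33% lower. In fl/+ cells 9 were called, 3 higher and 6 lower, against 16.3% of all genes, 9.72% higher and 6.58% lower. In +/+ cells 6 were called, 2 higher and 4 lower, against 16.0% of all genes, 9.49% higher and 6.50% lower. The members' median log2 fold change was -0.083 in fl/fl, -0.040 in fl/+ and 0.0016 in +/+, beside -0.012, -0.0074 and -0.012 for all genes. Effector and resting libraries did not overlap in 12, 16 and 13 members, where 21.7%, 34.1% and 32.3% of all genes did not. Of 8 effector markers such as Icos and Lag3, 5 were higher in fl/fl effector cells, 7 in fl/+ and 7 in +/+. Of 8 resting markers such as Lef1 and Satb1, 2, 7 and 8 were lower.

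H2-Ob, the beta chain of H2-O, which restrains peptide exchange on class II molecules, fell in effector cells of all 3 genotypes. It had 40.7, 63.1 and 67.1 CPM in fl/fl effector cells, against 77.2, 82.3 and 102 CPM in fl/fl resting cells. It had 36.6, 44.0 and 36.8 CPM in fl/+ effector cells, against 97.8, 71.6 and 86.9 CPM in fl/+ resting cells. In +/+ cells the values were 45.0, 34.4 and 43.6 CPM in effector and 93.9, 96.8 and 82.9 CPM in resting libraries. Every effector library lay below every resting library of its genotype. This was a log2 fold change of -0.64 in fl/fl (SE 0.17, edgeR adjusted p = 0.0274), -1.14 in fl/+ (SE 0.17, edgeR adjusted p = 0.000129) and -1.14 in +/+ (SE 0.17, edgeR adjusted p = 0.000158). The smaller fl/fl change differed from that of +/+ by 0.49 (SE 0.24, edgeR adjusted p = 0.571), which was not called. The fl/fl call was lost without fl/fl effector replicate 1 (-0.42, adjusted p = 0.234) and without fl/fl resting replicate 2 (0.0635) or 3 (0.151).

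Pdia3, the disulfide isomerase of the loading complex, rose in effector cells of all 3 genotypes. It had 555, 565 and 565 CPM in fl/fl effector cells, against 477, 459 and 428 CPM in fl/fl resting cells. It had 588, 569.9 and 585 CPM in fl/+ effector cells, against 473, 450.2 and 455 CPM in fl/+ resting cells. In +/+ cells it had 614, 633 and 582 CPM in effector and 480.2, 513 and 449 CPM in resting libraries. No effector library overlapped a resting one. Fitted by edgeR, the log2 fold change was 0.30 in fl/fl (SE 0.07, edgeR adjusted p = 0.0166), 0.34 in fl/+ (SE 0.07, edgeR adjusted p = 0.00306) and 0.34 in +/+ (SE 0.07, edgeR adjusted p = 0.00294). The fl/fl call was lost without fl/fl effector replicate 1 (adjusted p = 0.0502) and without fl/fl resting replicate 2 (0.0501) or 3 (0.0953).

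Its partner calreticulin was also higher. Calr had 249, 195 and 247 CPM in fl/+ effector cells, against 185, 163 and 189 CPM in fl/+ resting cells, which did not overlap. In the fit the log2 fold change was 0.37 (SE 0.11, edgeR adjusted p = 0.0308). In +/+ cells it was 0.33 (SE 0.11, edgeR adjusted p = 0.0542), and with the batch number as a block 0.33 (SE 0.09, adjusted p = 0.0182). In fl/fl cells it was 0.23 (SE 0.11, edgeR adjusted p = 0.272), with 250.1, 201 and 203 CPM in effector and 192, 172 and 194 CPM in resting libraries. The call in fl/+ was lost without effector replicate 1 (adjusted p = 0.12) or 3 (0.128) and without resting replicate 1 (0.0637) or 2 (0.124). Canx, the membrane-bound relative of Calr, changed by 0.20 in fl/fl, 0.20 in fl/+ and 0.12 in +/+ and was not called.

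Of the peptide transporter, Tap2 alone was called. It had 324, 327 and 328 CPM in fl/+ effector cells, against 382, 359.7 and 439 CPM in fl/+ resting cells, and the groups did not overlap. The log2 fold change was -0.27 (SE 0.09, edgeR adjusted p = 0.0413). It was -0.12 in fl/fl and -0.14 in +/+, neither called. The fl/+ call held in 1 of 6 fits that each left out a library, and the value of -0.17 without resting replicate 3 (adjusted p = 0.244) was the closest to 0. The 4 other fits, without resting replicate 1 or effector replicates 1, 2 or 3, gave adjusted p of 0.0882 to 0.118. Tapbpl, a peptide editor akin to tapasin, changed by -0.30 in fl/+ (SE 0.11, edgeR adjusted p = 0.0823, and 0.0251 with the batch block). Tapbp, Erap1 and B2m were called in no state comparison.

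The nonclassical rows H2-T10 and H2-T24 fell in effector cells of all 3 genotypes. H2-T10, a class I-like ligand of gamma delta T cells, had 70.0, 59.0 and 67.7 CPM in fl/fl effector cells, against 96.9, 83.3 and 87.1 CPM in fl/fl resting cells. It had 51.1, 55.7 and 44.8 CPM in fl/+ effector cells, against 81.4, 77.5 and 74.2 CPM in fl/+ resting cells. In +/+ cells it had 51.5, 70.3 and 54.7 CPM in effector and 86.5, 72.1 and 75.4 CPM in resting libraries. The states did not overlap in any genotype, though 70.3 and 72.1 CPM in +/+ lay close. On the log2 scale the change was -0.44 in fl/fl (SE 0.13, edgeR adjusted p = 0.0425), -0.62 in fl/+ (SE 0.13, edgeR adjusted p = 0.00185) and -0.43 in +/+ (SE 0.13, edgeR adjusted p = 0.0279). The fl/fl call was lost whichever of the 6 fl/fl libraries was left out (adjusted p 0.0727 to 0.138), and the +/+ call without effector replicate 1 (0.149) or 3 (0.0871) or resting replicate 1 (0.133).

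H2-T24 had 56.7, 63.4 and 47.8 CPM in fl/fl effector cells, against 81.7, 87.3 and 75.6 CPM in fl/fl resting cells. It had 36.7, 51.5 and 38.0 CPM in fl/+ effector cells, against 57.7, 71.6 and 54.5 CPM in fl/+ resting cells, and 45.2, 38.1 and 44.7 CPM in +/+ effector cells, against 61.1, 66.5 and 73.8 CPM in +/+ resting cells. No effector library reached a resting one of its genotype. This was a log2 fold change of -0.53 in fl/fl (SE 0.15, edgeR adjusted p = 0.034), -0.55 in fl/+ (SE 0.15, edgeR adjusted p = 0.0139) and -0.64 in +/+ (SE 0.15, edgeR adjusted p = 0.00577). The +/+ call held without any single library. The fl/fl call was lost without each library but effector replicate 2 (adjusted p 0.0616 to 0.141), and the fl/+ call without effector replicate 1 (0.0825) or 3 (0.0782) or resting replicate 2 (0.0983).

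H2-T22, the close relative of H2-T10, was called in fl/+ cells. It had 96.5, 144 and 118 CPM in fl/+ effector cells, against 186, 174 and 170.4 CPM in fl/+ resting cells, with no overlap. Fitted by edgeR, the log2 fold change was -0.57 (SE 0.14, edgeR adjusted p = 0.00856), and -0.43 (adjusted p = 0.0664) without effector replicate 1. It was -0.24 in fl/fl (SE 0.14, edgeR adjusted p = 0.402) and -0.24 in +/+ (SE 0.14, edgeR adjusted p = 0.294). The more abundant H2-T23 changed by -0.07 in fl/fl, -0.07 in fl/+ and 0.07 in +/+ and was called in none. Summed over the 6 H2-T rows, fl/fl cells had 1036, 1048 and 1065 CPM in effector and 1159, 1197 and 1176 CPM in resting libraries. In fl/+ cells the sums were 920.1, 968 and 936 CPM against 1066, 1091 and 1085 CPM, and in +/+ cells 1138, 1054 and 1090.0 CPM against 1228, 1117 and 1141 CPM. The summed states were apart in fl/fl and fl/+ and overlapped in +/+.

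H2-K2, the pseudogene beside H2-K1, fell in fl/+ and +/+ effector cells. It had 54.2, 79.5 and 62.3 CPM in fl/fl effector cells, against 84.4, 109 and 86.2 CPM in fl/fl resting cells. It had 57.8, 49.2 and 39.2 CPM in fl/+ effector cells, against 94.6, 90.1 and 73.7 CPM in fl/+ resting cells, and 54.1, 53.4 and 59.1 CPM in +/+ effector cells, against 74.3, 86.3 and 83.3 CPM in +/+ resting cells. The states did not overlap in any genotype. In the fit the log2 fold change was -0.52 in fl/fl (SE 0.16, edgeR adjusted p = 0.0574, and 0.0323 with the batch block), -0.82 in fl/+ (SE 0.16, edgeR adjusted p = 0.00109) and -0.55 in +/+ (SE 0.16, edgeR adjusted p = 0.0237). The +/+ call was lost without effector replicate 1 (adjusted p = 0.081) or 2 (0.077) and without resting replicate 2 (0.0855) or 3 (0.0595).

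Among the H2-Q rows, H2-Q8 rose in fl/+ effector cells, with 196, 128 and 154 CPM against 110.5, 96.8 and 84.1 CPM in fl/+ resting cells. The groups did not overlap, and the log2 fold change was 0.71 (SE 0.24, edgeR adjusted p = 0.0476). It was lost in 5 of 6 fits without 1 library (adjusted p 0.0678 to 0.199), all but the one without effector replicate 2. H2-Q2 was called higher in +/+ effector cells, with 12.7, 16.9 and 1.85 CPM against 0.507, 2.03 and 1.18 CPM in +/+ resting cells. Effector replicates 1 and 2 stood apart there, and effector replicate 3 overlapped the resting libraries. The log2 fold change was 3.13 (SE 0.85, edgeR adjusted p = 0.0148), and the call was lost without effector replicate 1 (adjusted p = 0.0601) or 2 (0.0653) or resting replicate 1 (0.0834).

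**Figure D3:**
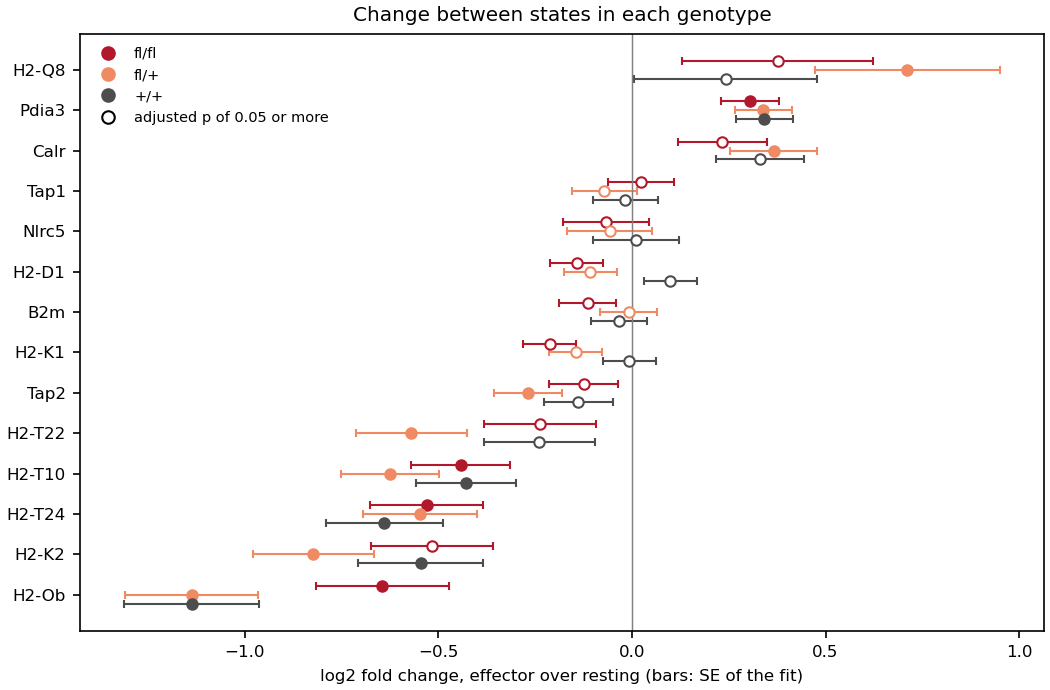
Log2 fold change of effector over resting cells for 14 members in fl/fl, fl/+ and +/+, with SE bars, filled where called and open where the adjusted p was 0.05 or more. Drawn are all members called in a state comparison except H2-Q2, beside H2-K1, H2-D1, B2m, Tap1 and Nlrc5. H2-Ob is lowest at -1.14 in fl/+ and +/+, Pdia3 is filled on the positive side in all 3 genotypes, and H2-K1, H2-D1, B2m, Tap1 and Nlrc5 are open throughout.

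Between genotypes, the members that were called were H2-Q rows, and all were lower in fl/fl cells. In effector cells 4 of 40 members were called lower in fl/fl than in +/+ and none higher, where 1.65% of all genes were called lower, 1.17% higher and 2.81% in either direction. In resting cells 1 member was called lower, where 0.151% of all genes were called lower, 0.546% higher and 0.696% in either direction. The members' median log2 fold change was -0.13 in effector and -0.055 in resting cells, beside 0.0068 and -0.0032 for all genes. The fl/fl and +/+ libraries did not overlap in 14 members in effector and 6 in resting cells, where 20.5% and 11.6% of all genes did not. No member was called for fl/+ against +/+ in resting or effector cells (0.0847% and 0.00941% of genes called) or for fl/fl against fl/+ (0.0282% and 0.677%). At an edgeR p under 0.05 without adjustment these 4 comparisons held 5, 5, 3 and 8 members. The shares of all genes were 6.29%, 5.47%, 4.83% and 11.8%. DESeq2 called 0, 1, 0 and 0 members, and the fit without the filter on low counts called 3, 4, 2 and 1.

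H2-Q5 was the clearest. It had 281, 241 and 250.3 CPM in fl/fl effector cells, 303, 306 and 307 CPM in fl/+ effector cells, and 343, 339 and 349 CPM in +/+ effector cells. In resting cells it had 268, 244 and 253 CPM in fl/fl, 293, 272 and 300.1 CPM in fl/+, and 339, 327 and 321 CPM in +/+ libraries. In both states the 3 genotypes formed separate ranges, with fl/+ in the middle. H2-Q sequences vary between mouse strains, and neither the labels nor these gene-level values show strain, so whether the genotypes share an MHC haplotype was not tested for this or any other H2- row. The log2 fold change of fl/fl against +/+ was -0.42 in effector cells (SE 0.08, edgeR adjusted p = 0.00788) and -0.37 in resting cells (SE 0.08, edgeR adjusted p = 0.0297). For fl/+ against +/+ it was -0.17 in effector cells (SE 0.08, edgeR adjusted p = 0.883) and -0.19 in resting cells (SE 0.08, edgeR adjusted p = 0.659). The effector call was lost without +/+ effector replicate 1 (adjusted p = 0.0607) or fl/fl effector replicate 2 (0.0827), and the resting call without +/+ resting replicate 1 (0.185) or 2 (0.113) or fl/fl resting replicate 2 (0.148) or 3 (0.149).

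H2-Q9, of the Qa-2 family and the most abundant H2-Q row, had 685, 685 and 565 CPM in fl/fl effector cells and 611, 726 and 675 CPM in fl/+ effector cells, against 900.1, 834 and 858 CPM in +/+ effector cells. The fl/fl and fl/+ ranges overlapped and both lay below +/+. The log2 fold change of fl/fl against +/+ was -0.42 (SE 0.09, edgeR adjusted p = 0.0215). In resting cells, with 772, 757 and 698 CPM in fl/fl and 912, 1019.6 and 849.6 CPM in +/+ libraries, it was -0.32 (SE 0.09, edgeR adjusted p = 0.169). The effector call was lost without +/+ effector replicate 1 (adjusted p = 0.121) or 2 (0.0692) or fl/fl effector replicate 2 (0.0732) or 3 (0.0986). H2-Q7, its partner in the family, had 249.8, 228 and 259.9 CPM in fl/fl and 292, 232 and 289 CPM in +/+ effector libraries, which overlapped, and was not called. The sum of H2-Q7 and H2-Q9 was 935, 913 and 825 CPM in fl/fl effector cells and 872, 989 and 963.5 CPM in fl/+ effector cells, against 1192, 1066 and 1147 CPM in +/+ effector cells. In resting cells it was 979, 1038 and 1005 CPM in fl/fl and 1076, 978 and 1079 CPM in fl/+, against 1269, 1292 and 1155 CPM in +/+. On this sum the +/+ libraries lay above all others in each state, and the fl/fl and fl/+ ranges overlapped.

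H2-Q4 had 184, 151 and 167 CPM in fl/fl effector cells and 212, 197 and 179 CPM in fl/+ effector cells, against 227, 229 and 214 CPM in +/+ effector cells. No fl/fl library reached a +/+ one. On the log2 scale the change was -0.42 (SE 0.10, edgeR adjusted p = 0.0238). It was -0.27 in resting cells (SE 0.10, edgeR adjusted p = 0.315), where fl/fl and +/+ did not overlap either. The fl/+ resting libraries, at 190, 199 and 173 CPM, overlapped the +/+ ones. The effector call was lost without +/+ effector replicate 1 (adjusted p = 0.116) or 2 (0.0958) or fl/fl effector replicate 2 (0.163) or 3 (0.0661).

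H2-Q8 had 142, 81.9 and 85.2 CPM in fl/fl effector cells and 196, 128 and 154 CPM in fl/+ effector cells, against 175, 214 and 201 CPM in +/+ effector cells. The log2 fold change of fl/fl against +/+ was -0.90 (SE 0.24, edgeR adjusted p = 0.0486), with no overlap. In resting cells it had 103, 77.9 and 61.4 CPM in fl/fl libraries, against 172, 219.6 and 105 CPM in +/+ libraries. There the change was -1.04 (SE 0.24, edgeR adjusted p = 0.0544), and with the batch number as a block -1.04 (SE 0.20, adjusted p = 0.00833). The effector call held only without fl/fl effector replicate 1 and was lost without any of the 5 other libraries (adjusted p 0.0657 to 0.25).

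The neighbouring H2-Q6 row ran from 0 to 69.1 CPM with groups that overlapped. Its sum with H2-Q8 was 154, 96.6 and 136 CPM in fl/fl effector cells and 196.5, 175 and 196 CPM in fl/+ effector cells, against 236, 278 and 225 CPM in +/+ effector cells. In resting cells it was 103, 90.9 and 96.2 CPM in fl/fl and 149, 122 and 142 CPM in fl/+, against 194, 221 and 174.5 CPM in +/+. In both states the 3 genotypes formed separate ranges on this sum.

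Summed over all 9 H2-Q rows, fl/fl effector cells had 1565, 1405 and 1387 CPM and fl/+ effector cells 1594, 1673 and 1655 CPM, against 2020.0, 1943 and 1940.0 CPM in +/+ effector cells. The sums in resting cells were 1523, 1534 and 1536 CPM in fl/fl and 1716, 1578 and 1702 CPM in fl/+, against 1996, 2053 and 1865 CPM in +/+. The +/+ libraries were above all others and the fl/fl libraries below all others in each state. The means were 1453 ± 97.9 CPM in fl/fl, 1641 ± 41.1 CPM in fl/+ and 1968 ± 45.4 CPM in +/+ effector cells. They were 1531 ± 6.99 CPM in fl/fl, 1665 ± 76.0 CPM in fl/+ and 1972 ± 96.2 CPM in +/+ resting cells (SD, n = 3 libraries each). Rows were summed after their values were seen, so no test is given for the sums. The interaction of H2-Q5 was -0.05 (SE 0.11) and that of H2-Q9 -0.10 (SE 0.13), neither called.

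**Figure D4:**
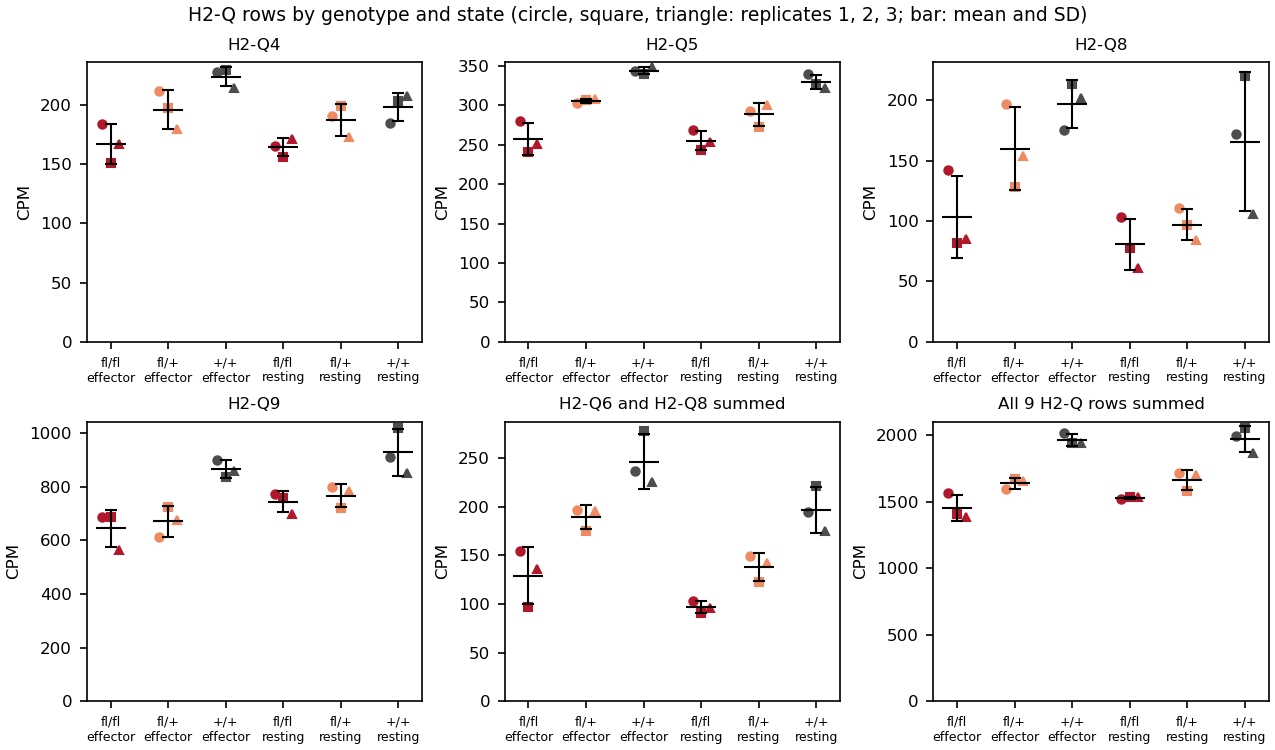
CPM of H2-Q4, H2-Q5, H2-Q8 and H2-Q9, of H2-Q6 and H2-Q8 summed, and of all 9 H2-Q rows summed, in each library by genotype and state, with bars for the mean and SD of 3 libraries. The summed H2-Q rows lie at 1387 to 1565 CPM in fl/fl effector libraries, 1594 to 1673 CPM in fl/+ and 1940.0 to 2020.0 CPM in +/+ effector libraries.

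Summed H2-K1 and H2-D1 in effector cells were 7100, 7279 and 6973 CPM in fl/fl and 7019, 7355 and 7214 CPM in fl/+, against 8264, 8026 and 7716 CPM in +/+ libraries, which lay above all the others. In resting cells the same sums were 7767, 8347 and 8152 CPM in fl/fl, 8034, 7376 and 8213 CPM in fl/+ and 7984, 7679 and 7746 CPM in +/+ libraries, which overlapped. H2-T24 had a log2 fold change of 0.39 in fl/fl against +/+ effector cells (SE 0.15, edgeR adjusted p = 0.174). Among nonclassical rows in effector cells 11 of 15 log2 fold changes were below 0 for fl/fl and 15 of 15 for fl/+ against the shared +/+ libraries. Their medians were -0.33 for fl/fl and -0.27 for fl/+, beside 0.0068 and -0.0017 for all genes. Markers of state differed between fl/fl and +/+ effector cells too. Of the 8 effector markers 4 were called lower in fl/fl and of the 8 resting markers 7 were called higher. In resting cells none of the 16 was called. The part of these in the H2-Q values of effector cells was not tested. The H2-Q rows called for genotype had +/+ state changes of 0.06 (H2-Q5), -0.10 (H2-Q9), 0.17 (H2-Q4) and 0.24 (H2-Q8), none called in +/+. Of these rows H2-Q8 alone was called between states in another genotype, higher in fl/+ effector cells as given above.

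In no interaction of genotype with state was a member called, for fl/fl (0% of all genes called) or for fl/+ (0.0188%). At an edgeR p under 0.05 without adjustment there were 3 members for fl/fl and 1 for fl/+. The shares of all genes were 8.97% and 3.23%. DESeq2 called 0 members in both, and the fit without the filter on low counts called 2 and 4. H2-Ke6, which encodes a steroid dehydrogenase, was 39.6, 39.7 and 46.5 CPM in fl/+ resting cells, against 23.1, 25.9 and 26.4 CPM in +/+ resting cells. Its log2 fold change of 0.74 (SE 0.26, edgeR adjusted p = 0.486) was not called, and with the batch block its adjusted p was 0.0428.

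Class II chains varied widely between libraries of a group. H2-Aa, H2-Ab1 and H2-Eb1 summed to 69.4, 10.1 and 3.63 CPM in fl/fl effector cells, 5.96, 42.5 and 43.8 CPM in fl/+ effector cells and 5.28, 6.87 and 25.5 CPM in +/+ effector cells. In resting cells they summed to 20.3, 23.8 and 52.0 CPM in fl/fl, 0.431, 9.45 and 77.0 CPM in fl/+, and 0.761, 3.24 and 136 CPM in +/+ libraries. All 6 groups overlapped. The chains were high and low in the same libraries, with H2-Ab1 at 67.1, H2-Aa at 38.7 and H2-Eb1 at 30.0 CPM in +/+ resting replicate 3, and H2-Ab1 and H2-Aa at 0 or 0.507 CPM in +/+ resting replicate 1. None of the 3 was called in any comparison, and their SE in the +/+ state comparison were 1.31 to 1.44 on the log2 scale.

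The B cell marker sum was highest in +/+ resting replicate 3 and fl/+ resting replicate 3, the libraries with the most class II chains. The 10 B cell markers in the table summed to 118 CPM in +/+ resting replicate 3 and 71.4 CPM in fl/+ resting replicate 3, and to 11.9 to 57.8 CPM in the others. None of the 10 was at 0 in every library. Cd79a, a signalling chain of the B cell receptor, was at 25.7 CPM in +/+ resting replicate 3 and 16.9 CPM in fl/+ resting replicate 3, at 0 in +/+ resting replicate 1, and at 0.529 to 7.08 CPM in the others. Other libraries did not keep this order. In fl/fl resting replicate 3, with 52.0 CPM of class II chains, the B cell sum was 24.8 CPM. In +/+ effector replicates 1 and 2, with 5.28 and 6.87 CPM of class II chains, it was 43.9 and 42.3 CPM. Cd79b gave 15.2 and 25.4 CPM of those sums and Cd22 17.5 and 14.8 CPM. By group the B cell sum ran from 18.1 to 34.1 CPM in fl/fl effector, 25.3 to 57.8 CPM in fl/+ effector, 34.4 to 43.9 CPM in +/+ effector, 20.0 to 27.4 CPM in fl/fl resting, 14.2 to 71.4 CPM in fl/+ resting and 11.9 to 118 CPM in +/+ resting cells. In fl/fl effector replicate 1, with 69.4 CPM of class II chains, the B cell sum was 34.1 CPM. The 6 CD8 or NK cell markers were highest in that library, at 111 CPM against 43.7 to 65.5 CPM in the other 17. Klrb1c, an NK cell receptor, was at 21.8 CPM there and at 0 to 5.37 CPM in the others. Nkg7, a cytotoxic granule protein, was at 62.8 CPM there and at 2.53 to 41.4 CPM in the others. It was called higher in effector than in resting cells of each genotype. Ncr1 was also highest in that library, at 1.16 CPM. Cd8a (2.70 CPM), Cd8b1 (16.2 CPM) and Prf1 (5.97 CPM) lay there within the range of the other libraries. The 8 dendritic cell markers summed to 2.15 to 9.32 CPM, with Itgax at 0 in 15 libraries and at most 0.739 CPM. The 9 myeloid markers summed to 63.6 to 105 CPM, of which Cst3 gave 58.4 to 97.8 CPM, and Lyz2 was at most 7.39 CPM. The sorted type's own markers summed to 3637 to 5097 CPM. The part of these cells in the class II values was not tested, and in sorted bulk samples fewer cells of a type and less RNA per cell cannot be told apart.

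**Figure D5:**
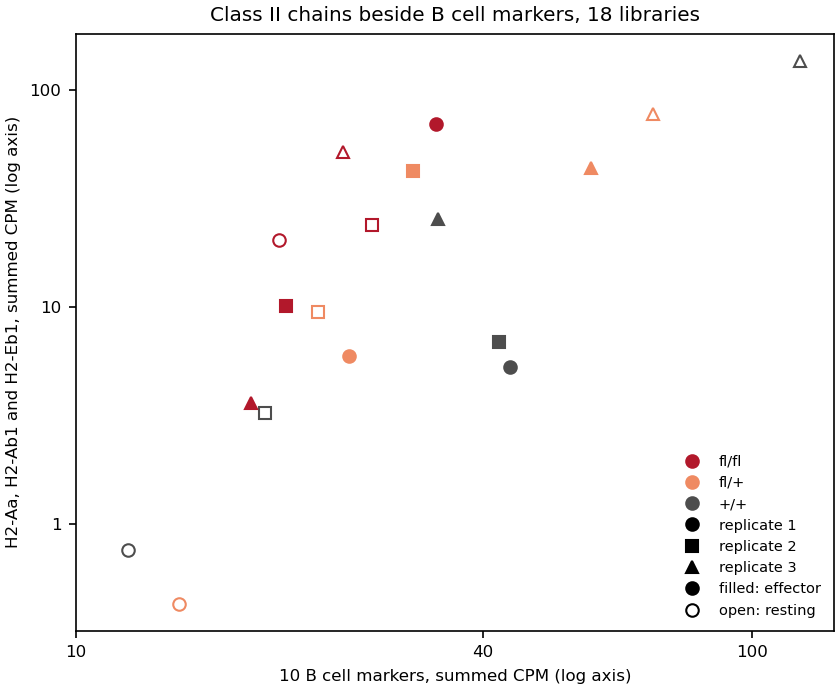
Summed CPM of H2-Aa, H2-Ab1 and H2-Eb1 against summed CPM of 10 B cell markers in 18 libraries, both on log axes, with colour for genotype, shape for replicate and filled or open points for effector or resting cells. The point at 118 and 136 CPM is +/+ resting replicate 3, and the lowest point at 14.2 and 0.431 CPM is fl/+ resting replicate 1.

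The invariant chain Cd74, which escorts class II chains, had 76.5, 20.5 and 18.7 CPM in fl/fl effector cells, 46.5, 49.2 and 70.6 CPM in fl/+ effector cells and 43.1, 41.2 and 51.4 CPM in +/+ effector cells. In resting cells it had 21.8, 14.4 and 34.2 CPM in fl/fl, 8.40, 15.7 and 49.8 CPM in fl/+, and 15.5, 16.6 and 87.2 CPM in +/+ libraries. Its highest library was again +/+ resting replicate 3, and fl/fl effector replicate 1 came next. It was above 8 CPM in every library, also in fl/+ resting replicate 1, where the chains were near 0. The state change was 0.81 in fl/fl (SE 0.62), 1.29 in fl/+ (SE 0.62) and 0.22 in +/+ (SE 0.61), none called.

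H2-DMa, a chain of the peptide editor H2-DM, had 60.1, 37.9 and 100.3 CPM in fl/fl effector cells, against 45.6, 40.1 and 52.0 CPM in fl/fl resting cells. Its state change was 0.48 in fl/fl (SE 0.25), 0.58 in fl/+ (SE 0.24) and 0.41 in +/+ (SE 0.24), none called. Its partners H2-DMb1 and H2-DMb2 were at or under 3.85 and 5.13 CPM. Ciita was at 0.529 to 7.90 CPM, the highest again in +/+ resting replicate 3. H2-Ob, which fell with the effector state, was at 82.9 CPM in that library and at 93.9 and 96.8 CPM in the other +/+ resting libraries.

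Other genes of the pathway were counted from fixed lists, and their counts stand beside the 6.34% of all genes called between states in fl/fl, 16.3% in fl/+ and 16.0% in +/+. Of 5 immunoproteasome genes, which cut peptides for class I, none was called in fl/fl or +/+ between states and Psmb10 changed by -0.47 in fl/+ effector cells (SE 0.14, edgeR adjusted p = 0.0223 over all genes). Of 10 genes of class I trafficking and chaperones, none was called in fl/fl, Pdia6 was higher in fl/+ and +/+, and the chaperone Hspa5 was higher in +/+. Hspa5 had a mean of 537 ± 108 CPM in effector and 349 ± 55.7 CPM in resting +/+ cells (SD, n = 3), with a log2 fold change of 0.62 (SE 0.16). Of 7 tested genes of class II processing, 1 was higher in fl/fl, 2 in fl/+ and 3 in +/+ effector cells, and none lower, where 5.01%, 9.72% and 9.49% of all genes were called higher.

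Ctsb, a lysosomal protease, rose in effector cells of each genotype. It had 377, 268 and 375 CPM in fl/fl effector cells, against 232, 211 and 212 CPM in fl/fl resting cells, and 536, 595 and 384 CPM in +/+ effector cells, against 231, 216 and 189 CPM in +/+ resting cells. This was a log2 fold change of 0.64 in fl/fl (SE 0.16, edgeR adjusted p = 0.02), 1.08 in fl/+ (SE 0.16, edgeR adjusted p = 0.000106) and 1.25 in +/+ (SE 0.16, edgeR adjusted p = 2.9e-05). Ifi30, a lysosomal thiol reductase, rose in fl/+ and +/+, and the endosomal protease Lgmn in +/+. Lgmn had 12.5, 13.4 and 14.5 CPM in fl/fl effector cells, against 43.5, 32.8 and 15.2 CPM in +/+ effector cells, a log2 fold change of -1.21 (SE 0.32, edgeR adjusted p = 0.0452). The +/+ libraries spread widely there, with replicate 3 near the fl/fl range.

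Of 5 listed genes that carry the interferon gamma signal to MHC genes, the receptor chain Ifngr2 and the kinase Jak1 were lower in effector cells of each genotype and none was higher. Ifngr2 had 64.6, 85.2 and 47.8 CPM in fl/fl effector cells, against 97.2, 114 and 86.2 CPM in fl/fl resting cells, and 37.4, 41.8 and 45.8 CPM in +/+ effector cells, against 85.2, 103 and 94.0 CPM in +/+ resting cells. Fitted by edgeR, the log2 fold change was -0.57 in fl/fl (SE 0.17, edgeR adjusted p = 0.0493), -0.91 in fl/+ (SE 0.17, edgeR adjusted p = 0.000888) and -1.18 in +/+ (SE 0.18, edgeR adjusted p = 0.000125). In effector cells Ifngr2 was higher in fl/fl than in +/+ by 0.69 (SE 0.18, edgeR adjusted p = 0.0449), with no overlap of the libraries. Of 13 transcription factors of MHC genes, none was called in fl/fl between states. Irf8 was higher and Irf1 lower in fl/+ effector cells, and Nfkb1 was higher in +/+ effector cells. No listed pathway gene was called in fl/fl against +/+ resting cells, and Lgmn and Ifngr2 were the ones called in effector cells, where 0.696% and 2.81% of all genes were called.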

How the data were processed

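Total RNA of sorted mouse regulatory T cells, lysed in TCL buffer with beta-mercaptoethanol per the labels' protocols, was sequenced in 18 libraries. Tools listed in the submitters' processing notes are RSEM 1.2.8, STAR 2.6.0 and bcl2fastq 2.17.1.14, and the build listed is mm10. Annotation, strand setting and filters were not given in the sources used. The authors deposited RSEM expected counts per gene, of which 29.4% of nonzero values were not whole, and they were rounded before fitting. The authors also deposited FPKM values, used for levels per length and in alternatives.

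Counts were fitted in R 4.3.3 with edgeR 4.0.16. TMM scaling factors were 0.9394 to 1.063, filterByExpr by group kept 10630 of 23420 genes, and 6 group means were fitted to all 18 libraries. The quasi-likelihood F test was used for 11 contrasts, with Benjamini-Hochberg adjustment over all tested genes and a threshold of 0.05. SE is the log2 fold change divided by the root of F. CPM is the rounded expected count over the library total of tested genes multiplied by the TMM scaling factor. Replicates of a group differed by more than counting error (chi-square 3.43 to 6.93 per gene, where 1 is the value for counting error), so no libraries were merged.

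The label tag that numbers replicates is batch, and the number was taken to mark a batch shared by all groups. Deviations from group means correlated at 0.21 (0.14 to 0.34) over 9 effector and resting pairs of one number and genotype. Over 36 pairs of one number across genotypes they correlated at 0.067 (-0.078 to 0.3). The main fit used neither pairing, and the batch number as a block shared across genotypes was an alternative. Others were RLE scaling, DESeq2 1.42.0, no filter, limma 3.58.1 on log2(FPKM + 1) and log2(FPKM + 0.1), only the compared groups, and each library left out. Leaving out replicate 3 of every group was added after the data were seen.

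The members, gene lists and naming rule were chosen with earlier results of these data known. Members called in any contrast, H2-K1, H2-D1, B2m, Tap1, Nlrc5, Cd74 and the class II chains are described by library, and the others by range. The targeted gene and 1 H2- row are not reported here. Motifs were matched by letter in RefSeq promoters (GRCm38.p6).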

Additional observations from a re-analysis of the deposited data

How the results depend on the processing

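Every called member kept its direction under every alternative run. RLE scaling changed no call. The number of members called moved by more than 1.5 times as follows. DESeq2 called 2 members for fl/fl against +/+ in resting cells and 1 for fl/+ against +/+ in effector cells. Without the filter on low counts, 10 members were called between states in +/+, 3 in resting and 9 in effector cells for fl/fl against +/+, 3 in resting and 4 in effector cells for fl/+ against +/+, 2 in resting and 1 in effector cells for fl/fl against fl/+, and 2 and 4 in the fl/fl and fl/+ interactions. Under limma with either pseudocount, 1 member was called between states in fl/fl and 0 for fl/fl against +/+ in resting cells. With the batch number as a replicate block, 2 were called for fl/fl against +/+ and 1 for fl/+ against +/+ in resting cells, it ended no call, and the calls it added are given with the results. With only the compared groups in the fit, 0 were called between states in fl/fl, and 0 in resting and 1 in effector cells for fl/fl against +/+. Without replicate 3 of every group, chosen after the data were seen, 0 members were called between states in fl/fl, 4 in fl/+ and 3 in +/+, and 0 in both states for fl/fl against +/+. Leaving out single libraries gave 0 to 5 members between states in fl/fl, 4 to 8 in fl/+ and 3 to 5 in +/+, and 0 to 5 in effector and 0 to 2 in resting cells for fl/fl against +/+. It gave 0 to 1 for fl/+ against +/+ in resting cells, 0 to 2 for fl/fl against fl/+ in effector cells, and 0 in the other contrasts. Fits with fewer libraries have fewer degrees of freedom, and for the other changes the cause was not tested. Of the 24 single-gene calls, 15 to 24 held under each of the alternatives that keep all libraries and groups, 13 of 23 with only the compared groups, and 6 of 24 without replicate 3. Depth limits the class II chains, H2-Q2, H2-L and Ciita most, which were near or at 0 counts in some libraries.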
